A study of Mus musculus with 16 samples.

Results

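H3K4me3 and H3K27me3 were compared at the promoters of young hematopoietic stem cells (HSCs). The comparison used the pooled peak list of each mark, restricted to chromosomes 1 to 19, which held 11279 H3K4me3 peaks and 50640 H3K27me3 regions. Together these were 61919 of the 122027 peaks and regions in the 6 lists of the series. Promoters reached 1 kb upstream and 1 kb downstream from the start sites of protein-coding transcripts, and a gene was given a mark when at least 1 bp of any of its promoters was covered. Of 20720 protein-coding genes with 39540 start sites, 633 had both marks (3.06%, 95% Wilson interval 2.83 to 3.30). H3K4me3 alone was found at 6692 genes (32.3%), H3K27me3 alone at 2631 genes (12.7%), and neither mark at 10764 genes (51.9%). With peaks and regions of a −log10 q-value of at least 4 only, 67 genes had both marks. Because each mark came as 1 pooled list, there were no replicate values and no test. The intervals cover counting error over genes only, and neighbouring genes are not independent.

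HSCs were sorted from the pooled bone marrow of female C57BL/6 mice aged 10 weeks (young) or 20 months (aged), which carried no engineered allele and received no treatment. The sorted cells were negative for lineage markers and the IL-7 receptor, positive for Sca-1, c-Kit and CD150, and negative for CD34, CD48 and Flt3. The antibodies used for chromatin immunoprecipitation and sequencing (ChIP-seq) were against H3K4me3, H3K27me3 and H2AK119ub1. Each mark was sequenced in 2 libraries per age, beside 2 libraries of input chromatin. Of 11 genes of the gate, Ptprc (CD45) and Cd34 had H3K4me3 alone, Flt3 had H3K27me3 alone, and 8 genes had neither. The latter were the markers Kit, Ly6a (Sca-1) and Slamf1 (CD150), for which the cells are positive, and Cd48, Il7r, Cd4, Cd8a and Itgam, for which they are negative. Cd34 had H3K4me3 with a fold enrichment of 4.37 although the cells were sorted as CD34-negative. Of 25 transcription factors of HSCs, 17 had H3K4me3, including Runx1, Meis1, Gata2, Lmo2 and Mecom. H3K4me3 was found without H3K27me3 at 16 of the 25 (64%), compared with 32.3% of all genes. Bmi1 and Gfi1 had H3K27me3 alone, and Hoxb4, Hhex, Gfi1b, Hoxa9, Ndn and Zfpm1 had neither mark.

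H3K4me3 is deposited around the start sites of genes that are active or ready to be transcribed, mostly at promoters rich in CpG dinucleotides. H3K27me3 is deposited by Polycomb repressive complex 2 (PRC2) and spreads over genes that are kept silent, in particular those of transcription factors that specify other tissues. Promoters that carry both marks are known from embryonic stem cells as bivalent promoters. In a population of cells, the overlap of both peaks does not show that both marks lie on the same chromosome copy or in the same cell.

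The bases upstream of a start site serve as examples for genes of each class. For each gene, 250 bases outside exons are given 5′ to 3′ on the strand of the gene, from the mm10 sequence, with every CpG in capitals. Nr4a2 and Meis2 ranked highest among the genes with both marks, and Adamts8, a secreted metalloprotease, was the highest-ranked such gene whose 250 bases lay under both marks (chosen after its values were seen). Mvd ranked highest for H3K4me3 alone, Hoxc13 highest for H3K27me3 alone, and Olfr1414 is an olfactory receptor with neither mark. The positions are chr2:57124004-57124253 (minus strand) for Nr4a2, chr2:116065840-116066089 (minus) for Meis2, chr9:30942312-30942561 (plus) for Adamts8, chr8:122443423-122443672 (minus) for Mvd, chr15:102920853-102921102 (plus) for Hoxc13 and chr1:92518662-92518911 (minus) for Olfr1414.
Nr4a2: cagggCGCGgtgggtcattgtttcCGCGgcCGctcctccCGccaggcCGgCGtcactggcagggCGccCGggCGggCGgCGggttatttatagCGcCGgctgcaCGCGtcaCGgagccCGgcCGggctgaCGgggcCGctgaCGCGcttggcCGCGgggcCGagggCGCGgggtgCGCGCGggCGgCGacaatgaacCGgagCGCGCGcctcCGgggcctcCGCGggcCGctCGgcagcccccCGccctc
Meis2: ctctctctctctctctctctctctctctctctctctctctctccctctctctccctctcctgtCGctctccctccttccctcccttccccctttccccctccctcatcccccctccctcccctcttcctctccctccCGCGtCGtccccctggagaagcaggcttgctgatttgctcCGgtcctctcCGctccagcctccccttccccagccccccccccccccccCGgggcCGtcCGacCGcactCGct
Adamts8: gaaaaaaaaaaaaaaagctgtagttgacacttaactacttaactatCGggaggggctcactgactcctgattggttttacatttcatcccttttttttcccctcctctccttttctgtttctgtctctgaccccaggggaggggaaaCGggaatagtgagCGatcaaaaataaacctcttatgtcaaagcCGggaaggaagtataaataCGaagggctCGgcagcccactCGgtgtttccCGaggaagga
Mvd: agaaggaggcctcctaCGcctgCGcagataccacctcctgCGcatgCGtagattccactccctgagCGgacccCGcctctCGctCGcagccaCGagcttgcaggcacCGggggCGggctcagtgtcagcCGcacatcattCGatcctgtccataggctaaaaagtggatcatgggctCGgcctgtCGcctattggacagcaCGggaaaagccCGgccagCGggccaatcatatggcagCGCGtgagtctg
Hoxc13: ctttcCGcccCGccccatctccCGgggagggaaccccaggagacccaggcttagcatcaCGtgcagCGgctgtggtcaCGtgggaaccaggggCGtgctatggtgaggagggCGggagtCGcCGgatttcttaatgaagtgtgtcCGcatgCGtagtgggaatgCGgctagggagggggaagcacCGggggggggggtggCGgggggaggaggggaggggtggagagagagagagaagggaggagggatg
Olfr1414: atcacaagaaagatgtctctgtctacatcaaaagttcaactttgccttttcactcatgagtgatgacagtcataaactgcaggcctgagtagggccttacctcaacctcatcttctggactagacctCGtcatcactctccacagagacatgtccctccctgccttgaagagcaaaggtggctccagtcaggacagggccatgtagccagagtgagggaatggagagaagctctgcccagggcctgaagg
Nr4a2 held 44 CpGs in these bases, Mvd 20, Hoxc13 15, Meis2 11, Adamts8 8 and Olfr1414 1. All 250 bases were under H3K27me3 at Hoxc13 and under both marks at Adamts8, and Olfr1414 had no peak. At Meis2 and Mvd the peaks lay elsewhere within the promoter. At Nr4a2 the promoter shown held H3K4me3 only, outside the 250 bases, and the H3K27me3 region of the gene lay at inner start sites.

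The classes differed in CpG content. Over all genes, the median number of CpGs in the 250 upstream bases was 16 with H3K4me3 alone, 14 with both marks, 10 with H3K27me3 alone and 4 with neither. Within 500 bp of the most upstream start site, the median ratio of observed to expected CpGs was 0.673 for genes with both marks (0.655 to 0.691). It was 0.753 for H3K4me3 alone (0.749 to 0.758), 0.592 for H3K27me3 alone (0.580 to 0.605) and 0.276 for neither (0.268 to 0.283). The intervals of these medians did not overlap. GC content hardly separated the 3 marked classes, with medians of 59.6%, 59.1% and 58.3%, against 50.9% for neither. Genes with both marks were also long. Their median length was 51711 bp, compared with 25068 bp for H3K4me3 alone, 24295 bp for H3K27me3 alone and 11975 bp for neither. Several start sites were found at 63.5% of them, against 58.0%, 50.4% and 47.6%. A mark at any promoter counted for the gene, so genes with more start sites had more chances of both marks. The part of this rule in the differences of length and start sites was not tested. A start site of another gene lay within 1 kb at 54 of the 633 genes (8.53%, 6.60 to 11.0), whereas 24.5% of the genes with H3K4me3 alone shared a promoter in this way.

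At CpG-rich promoters, H3K4me3 was less frequent with H3K27me3 than without it. H3K4me3 was found at 35.4% of all genes and H3K27me3 at 15.8%. Among genes with H3K27me3, 19.4% carried H3K4me3 (18.1 to 20.8), compared with 38.3% (37.6 to 39.1) of the genes without H3K27me3. Genes were then divided into quintiles of CpG content, with 4144 genes in each. In the quintile with the lowest CpG content, H3K4me3 was present at 3.57% of the genes with H3K27me3 and 2.72% of those without, and the intervals overlapped. The same held in quintile 2, with 11.0% and 13.6%. In quintiles 3, 4 and 5, the shares were 22.6%, 24.6% and 23.3% with H3K27me3, but 53.2%, 63.2% and 64.7% without it. From quintile 3 on, the intervals were far apart. The genes with both marks made up 5.89% of the genes in quintile 3, where they were most frequent, and 0.217% in quintile 1. Rgs20, a regulator of G protein signalling, was 1 of the 9 genes with both marks in quintile 1. Its CpG ratio was 0.0992, it was named outside the stated rules, and Igf2 had a lower ratio of 0.0608. The difference was also seen in genes with a single start site, where 15.0% (13.3 to 16.9) against 33.3% (32.3 to 34.3) carried H3K4me3.

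**Figure D1:**
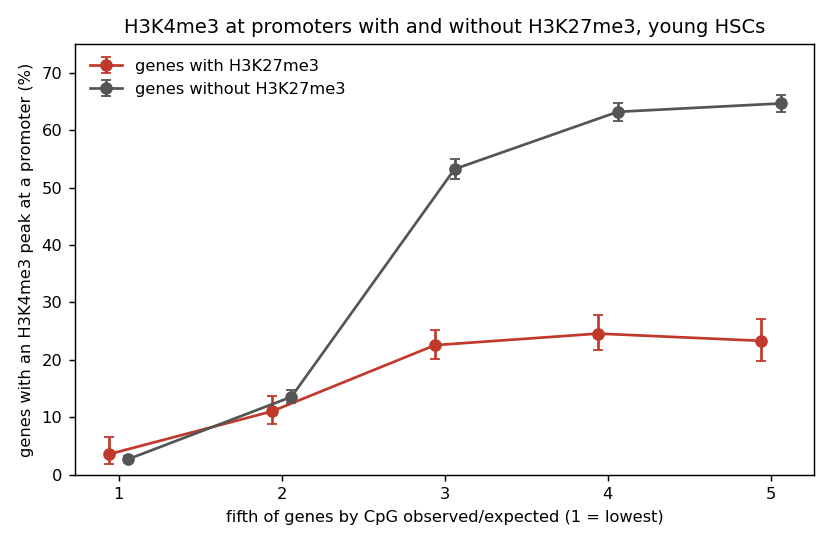
Share of protein-coding genes with an H3K4me3 peak at a promoter (percent, y axis) in each quintile of CpG observed/expected (x axis), for genes with and without H3K27me3 in young HSCs, where bars are 95% Wilson intervals. The curves lie together in quintiles 1 and 2 and separate from quintile 3 on, where genes without H3K27me3 reach 64.7% and genes with H3K27me3 stay between 22.6% and 24.6%.

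At the genes with both marks, H3K4me3 was slightly weaker and H3K27me3 slightly wider than at genes with a single mark. The strongest H3K4me3 peak of a gene had a median fold enrichment over background of 4.04 (4.04 to 4.17) with both marks and 4.25 (4.25 to 4.25) with H3K4me3 alone. A fold over 5 was found at 54 of the 633 genes (8.53%, 6.60 to 11.0) and at 19.7% (18.8 to 20.7) of the genes with H3K4me3 alone. At the summit, the H3K4me3 pileup was 19 reads at the median with both marks and 21 reads with H3K4me3 alone, against a background of at least 3.70 reads, so that the lists rest on few reads and a missing peak is not the absence of a mark. The H3K27me3 regions over the promoters of a gene measured 2081 bp at the median in total (1898 to 2289) with both marks, and 1760 bp (1685 to 1850) with H3K27me3 alone. A region wider than 2000 bp was found at 41.5% (37.8 to 45.4) and 32.0% (30.2 to 33.8), respectively. These values were taken over all promoters of a gene, and genes with both marks more often had several start sites. The part of this in the difference was not tested.

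The 10 genes that ranked best for both marks together had H3K4me3 of up to 5.74-fold enrichment and H3K27me3 over several kb. Nr4a2, an orphan nuclear receptor of dopaminergic neurons, had 5 H3K4me3 peaks of up to 5.65-fold enrichment and an H3K27me3 region of 11895 bp at chr2:57101917-57113811. The strongest H3K4me3 peak (chr2:57123407-57123665) lay downstream of its outermost start site, and the overlap with H3K27me3 was at a pair of inner peaks (chr2:57112073-57112551 and chr2:57113454-57114097). Meis2, a homeobox factor, had an H3K4me3 peak of 5.53-fold enrichment and 3 H3K27me3 regions with a total of 18763 bp. Pax2, which directs kidney and eye development, carried the longest H3K27me3 among the 10 genes, 26986 bp, and an H3K4me3 peak of 327 bp (chr19:44756076-44756402) that lay wholly within it. Tfap2a, a neural crest factor, had 22731 bp of H3K27me3 and Nrn1, which encodes the neuronal protein neuritin, 13847 bp. Elavl2, a neuronal RNA-binding protein, combined 6 H3K27me3 regions with an H3K4me3 peak of 5.74-fold enrichment. Chrm2 (a muscarinic acetylcholine receptor), Hey2 (a target of Notch signalling) and B4galnt2 (a glycosyltransferase) each had an H3K4me3 peak of 5.32-fold enrichment wholly within an H3K27me3 region, which measured 6650 bp, 2735 bp and 5821 bp, respectively. Phactr1, a regulator of actin and phosphatase 1, differed from the others. Its H3K4me3 peak was at chr13:42866384-42866805 and its nearest H3K27me3 region at chr13:42709904-42711639, so that the marks lay at different start sites of this long gene.

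**Figure D2:**
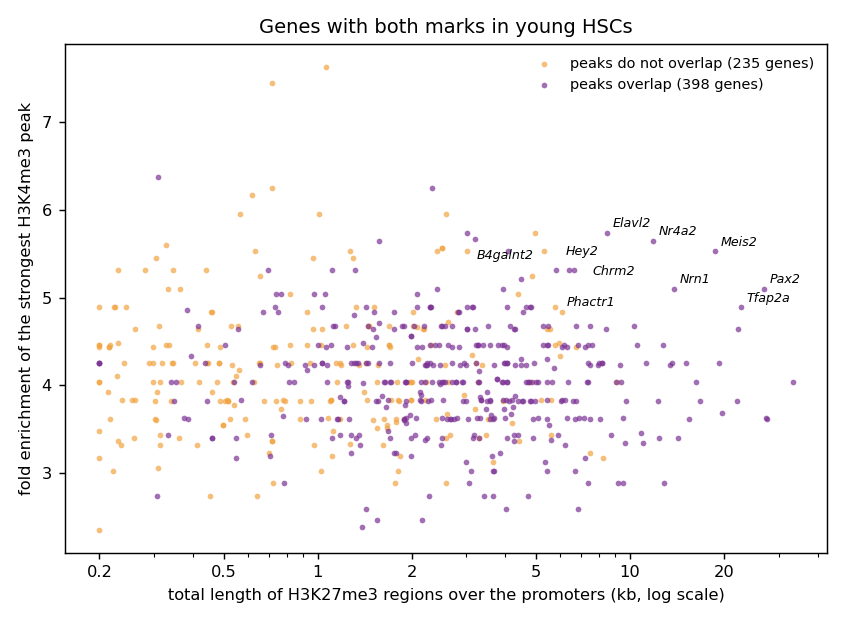
Each point is 1 of the 633 genes with both marks in young HSCs, with the total length of H3K27me3 regions over its promoters (kb, log scale, x axis) and the fold enrichment of its strongest H3K4me3 peak (y axis). Colours separate the 398 genes whose peaks overlap from the 235 genes whose peaks do not, which lie mostly at short H3K27me3 lengths, and the 10 best-ranked genes are named.

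Most genes with both marks carried them at the same start site. This was the case at 580 of the 633 genes (91.6%, 89.2 to 93.5), and 53 genes had the marks only at different start sites. Erg, a transcription factor required in HSCs, belonged to the latter. It had H3K4me3 at an inner start site (chr16:95457388-95459366, 5.74-fold) and H3K27me3 at its outermost start site (chr16:95582284-95586766). The peaks themselves overlapped within a promoter at 398 genes (62.9%, 59.0 to 66.6). The stretch under both marks was short, with a median of 245.5 bp and a maximum of 1131 bp at Ebf2, a factor of brown fat and neurons. Fat3 (an atypical cadherin, 1056 bp), Nr4a2 (837 bp), Frzb (a secreted WNT antagonist, 815 bp) and Shroom3 (an actin-binding protein of epithelia, 734 bp) followed. At 182 genes (28.8%, 25.4 to 32.4) the peaks lay side by side at the same start site, separated by a median of 352 bp, and 60 of them were less than 200 bp apart. Of the 298 start sites with this arrangement, H3K27me3 was downstream of H3K4me3 at 147, upstream at 112 and on both sides at 39. Overlapping and separate peaks had similar H3K4me3 (median fold 4.04 and 4.11), but the median H3K27me3 length was 2992 bp with overlap and 925 bp without.

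Around the most upstream start site, H3K4me3 was narrow and H3K27me3 broad with a dip in the middle. With both marks, H3K4me3 covered at most 24.4% of the bases, 300 bp downstream of the start site, compared with 40.6% at the same place for H3K4me3 alone. H3K27me3 covered 36.0% of the bases just upstream of the start site of genes with both marks and 58.2% at 1100 bp downstream. For H3K27me3 alone, the dip was to 40.1% just downstream of the start site and the maximum 56.7%. From 1 to 5 kb, H3K27me3 covered 30.7% with both marks and 29.5% with H3K27me3 alone, against 0.508% for H3K4me3 alone and 0.648% for neither. The spread of H3K27me3 away from the promoter was thus similar with and without H3K4me3. The values within 1 kb follow in part from the definition of the classes.

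**Figure D3:**
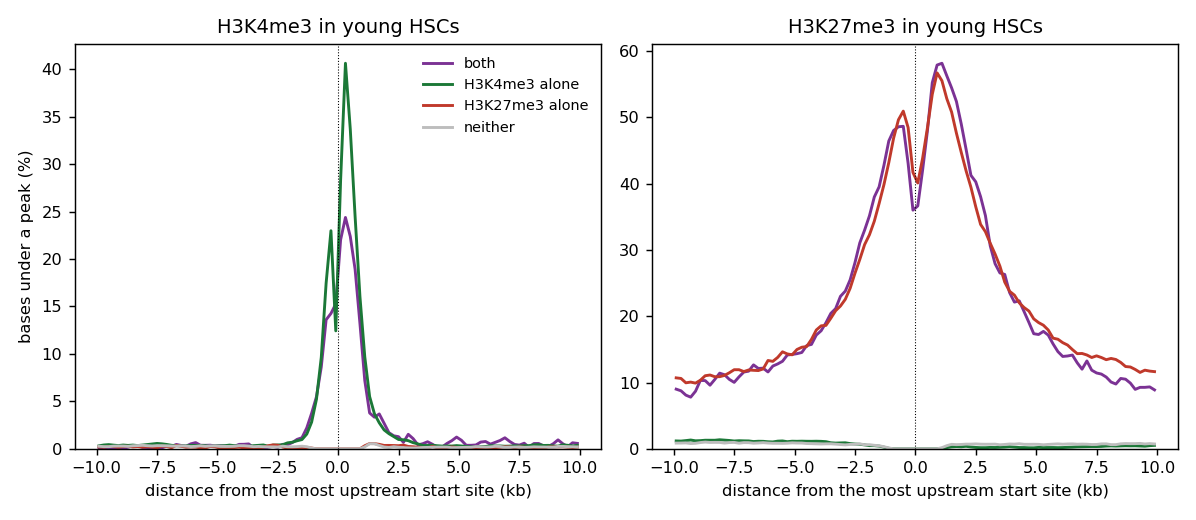
Percent of bases under an H3K4me3 peak (left) or an H3K27me3 region (right) in bins of 200 bp (y axis) against the distance from the most upstream start site (kb, x axis), by class of gene in young HSCs. H3K4me3 peaks just downstream of the start site at 40.6% for H3K4me3 alone and 24.4% for both marks, and H3K27me3 falls at the start site and extends several kb in both classes that carry it.

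A larger share of the H3K4me3 peaks away from promoters than of those at promoters overlapped H3K27me3. An H3K27me3 region was overlapped by 835 H3K4me3 peaks in all, and 572 of these lay wholly inside it. Most of the 835 peaks, 477 (57.1%), were at promoters. The share that overlapped H3K27me3 was 5.35% (4.90 to 5.83) of the 8918 peaks at promoters and 15.2% (13.8 to 16.7) of the other 2361 peaks. Of the 358 peaks outside promoters that overlapped H3K27me3, 54 were within 1 kb of the start of a gene that does not code for protein. Another count placed 176 of the 358 at 1 to 5 kb from a start site of a coding gene. The same counts were not made for all 2361 peaks outside promoters, so this closeness cannot be tied to H3K27me3. Among those near noncoding genes was a peak of 5.74-fold enrichment at chr3:17790301-17790714, close to the start of Mir124-2hg, the host gene of a neuronal microRNA (chosen after its values were seen). From the side of H3K27me3, 723 of 50640 regions (1.43%) held H3K4me3. This share rose with the width of the region, from 0.280% up to 0.5 kb to 29.0% over 5 kb. Wider regions hold more bases, but the share of their length under H3K4me3 rose as well, from 0.158% up to 0.5 kb to 1.25% from 2 to 5 kb and 1.43% over 5 kb. The share of regions at a promoter rose in parallel, from 5.23% to 56.3%, and its part in this was not tested.

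Genes of developmental transcription factors were mostly under H3K27me3, and part of them had H3K4me3 in addition. In 9 lists with 219 genes, 131 genes had H3K27me3 alone (59.8%, 53.2 to 66.1), 37 both marks (16.9%, 12.5 to 22.4), 17 H3K4me3 alone and 34 neither. Against all genes, of which 3.06% had both marks and 12.7% H3K27me3 alone, these shares were high. Among the 168 genes with H3K27me3, 22.0% carried H3K4me3, close to the 19.4% of all H3K27me3 genes. The LIM homeobox factors, which pattern the nervous system and limbs, were divided evenly, with both marks at 6 genes (Lhx2, Lhx4, Lhx6, Lhx8, Lhx9 and Lmx1a) and H3K27me3 alone at 6, including Lhx1, Isl1 and Isl2. The peaks overlapped at all 6 genes with both marks, and their H3K4me3 folds ranged from 3.40 (Lhx9) to 4.68 (Lhx6). All 9 PAX factors had H3K27me3, and Pax2, Pax3 and Pax6 had H3K4me3 as well. Among the T-box factors, Tbx1, Tbx3, Tbr1 and Eomes had both marks and 8 had H3K27me3 alone, among them T (brachyury) and Tbx5. A list of NKX, IRX, ZIC and related factors of axis and organ patterning had H3K27me3 at 27 of 30 genes, with both marks at Irx3, Nkx1-2, Nkx2-1, Nkx2-2, Nkx6-1 and Nkx6-2. Of 41 forkhead factors, 19 had H3K27me3 alone and 10 neither mark. H3K4me3 alone was found at 8 (Foxa3, Foxj2, Foxj3, Foxk1, Foxm1, Foxo1, Foxo3 and Foxp1), and Foxa2, Foxb2, Foxc1 and Foxj1 had both marks.

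The Hox clusters showed all classes side by side. Of 39 Hox genes, 24 had H3K27me3 alone (61.5%), 5 both marks (12.8%), 4 H3K4me3 alone (10.3%) and 6 neither (15.4%). The shares of all genes were 12.7%, 3.06%, 32.3% and 51.9%, respectively. Genes with both marks included Hoxa10, Hoxb6, Hoxb7 and Hoxc9. Hoxc9 lay in the widest region of the list, 33297 bp, which also covered the promoters of Hoxc10 and Hoxc11. Among the promoters of these 3 genes, only that of Hoxc9 carried H3K4me3 (4.04-fold). Outside the promoters, the region held an H3K4me3 peak of 3.63-fold enrichment near Hoxc10 (chr15:102963747-102963984). H3K4me3 alone was found at Hoxa3, Hoxa4, Hoxb2 and Hoxb5. Hoxa9 and Hoxb4, which act in HSCs, had neither mark. No gene of the HoxD cluster had H3K4me3 within 1 kb of a start site. Beyond this reach, H3K4me3 peaks lay within H3K27me3 near Hoxd12, at chr2:74672918-74673131 (3.735-fold) and chr2:74672099-74672305 (2.467-fold). Hoxc13, a factor of hair and nail, had the longest H3K27me3 of all genes with this mark alone, 38491 bp, followed by Cdkn2a, Hoxc11, Hoxc10 and Hand2, a factor of heart and limb.

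**Figure D4:**
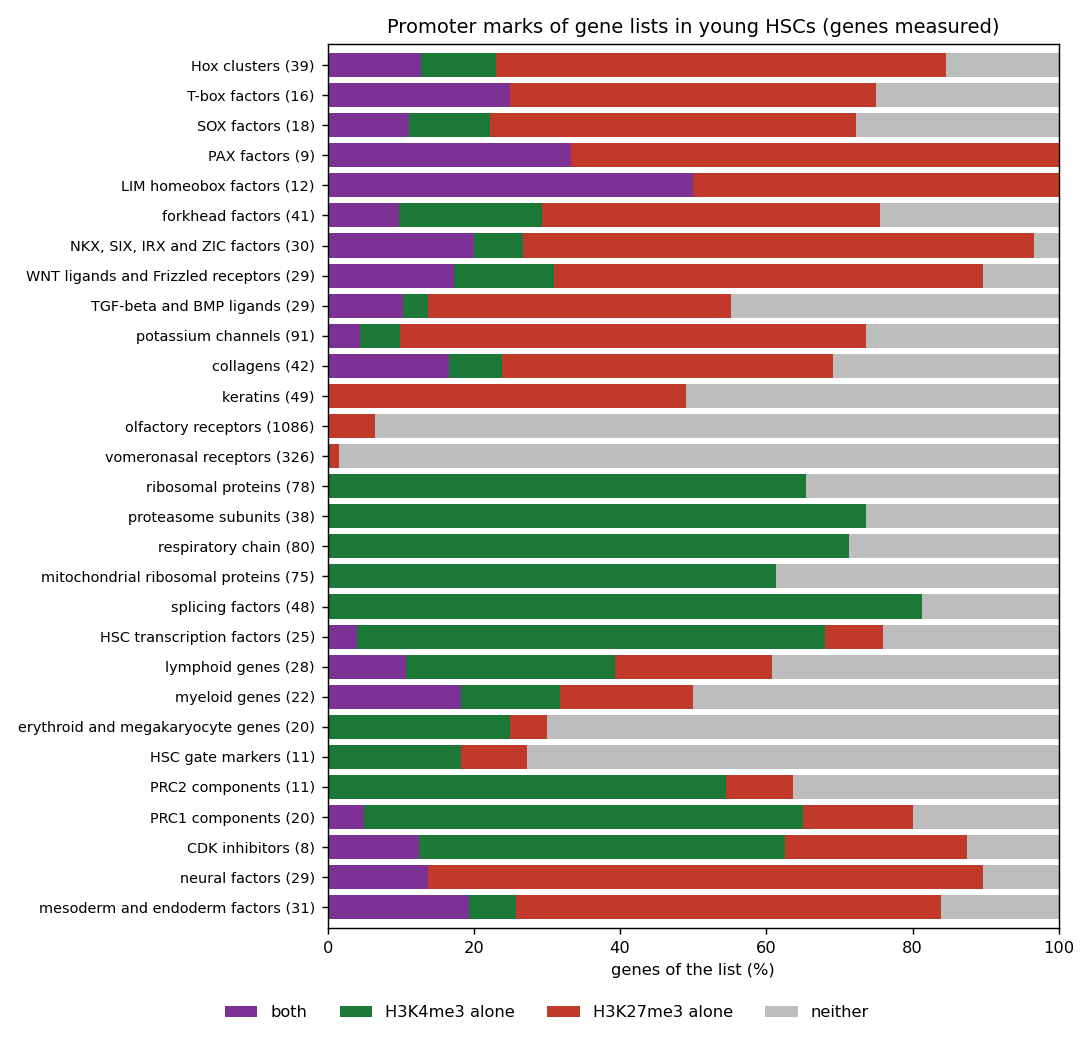
Share of the genes of each list (percent, x axis) with both marks, H3K4me3 alone, H3K27me3 alone or neither in young HSCs, for 29 lists with the number of genes measured in brackets. Lists of developmental factors are mostly H3K27me3 with a part of both marks, lists of housekeeping genes hold only H3K4me3 or neither, and olfactory and vomeronasal receptors are mostly without either mark.

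Genes of signalling and of structural proteins were often under H3K27me3 as well, with both marks at 0 to 7 genes of a list. Of all genes, 12.7% had H3K27me3 alone and 3.06% both marks. Of 29 genes of WNT ligands and Frizzled receptors, 17 had H3K27me3 alone (58.6%). Another 5 had both marks (17.2%), namely Fzd2, Wnt2, Wnt2b, Wnt5a and Wnt16. The receptors Fzd4, Fzd5, Fzd6 and Fzd8 had H3K4me3 alone. The ligands of the TGF-beta and BMP family had both marks at Bmp8a, Gdf6 and Tgfb2 (10.3%) and H3K27me3 alone at 12 of 29 (41.4%). Potassium channels were H3K27me3 alone at 58 of 91 genes (63.7%). They had both marks at Kcna4, Kcnc2, Kcnh8 and Kcnj5 (4.40%), near the share of all genes. Of 42 collagen genes, 7 had both marks (16.7%), among them Col2a1 of cartilage. Col4a1 and Col4a2, which share a promoter, had H3K4me3 alone. Keratins had H3K27me3 alone at 24 of 49 genes (49.0%) and no H3K4me3.

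Housekeeping genes were without H3K27me3, and chemosensory receptors were mostly without either mark. In 5 lists of ribosomal, mitochondrial ribosomal, proteasome, respiratory chain and splicing proteins with 319 genes, 221 had H3K4me3 (69.3%, 64.0 to 74.1). None had H3K27me3, with an upper Wilson limit of 1.19%. The other 98 had no listed peak, although most genes of these kinds are active in all cells. Matching by symbol also took in tissue-restricted variants, such as Rpl3l, Cox8c and Psmb11, among the 98. Of all genes, 35.4% had H3K4me3 and 15.8% H3K27me3. The H3K4me3 peaks that ranked highest were at Mvd (8.08-fold, an enzyme of sterol synthesis), the neighbours Klhl18 and Kif9, Cep55 (a protein of cell division) and Rnf213 (a ubiquitin ligase). Of 1412 olfactory and vomeronasal receptor genes, 1337 had neither mark (94.7%, 93.4 to 95.7), compared with 51.9% of all genes. Another 73 had H3K27me3 alone (5.17%), 2 had H3K4me3 and none had both, with an upper Wilson limit of 0.271%. The median CpG ratio of these receptor genes was 0.104. In the quintile of lowest CpG content, 91.4% of all genes had neither mark and 5.86% had H3K27me3 alone, near the shares of the receptors.

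Blood genes were found in all classes. Of 94 genes in 4 lists, 8 had both marks (8.51%, 4.38 to 15.9), compared with 3.06% of all genes. H3K4me3 alone was found at 32 (34.0%), H3K27me3 alone at 13 (13.8%) and neither at 41 (43.6%), and the intervals of these shares held the 32.3%, 12.7% and 51.9% of all genes. Of the 8 genes, 7 are regulators or receptors of myeloid and lymphoid cells, which the gate excludes. Cebpa, the factor of granulocyte fate, had H3K4me3 of 4.03-fold enrichment (chr7:35118916-35119136) and 2 H3K27me3 regions beside it with a total of 1153 bp. Irf8, a factor of monocytes and dendritic cells, had a stronger H3K4me3 peak (5.32-fold) and an H3K27me3 region of 343 bp. Irf4, which acts in plasma cells, had overlapping marks. Cd14, a receptor of monocytes, had 5.53-fold H3K4me3 next to 629 bp of weak H3K27me3. Ebf1, the factor of B cell fate, had an H3K4me3 peak of 3.61-fold enrichment that lay within an H3K27me3 region of 6658 bp (chr11:44614986-44621643). Lef1, a factor of WNT signalling in lymphocytes, had 3 H3K4me3 peaks and 7329 bp of H3K27me3, with 650 bp under both. Id2, an inhibitor of E proteins, had the marks side by side. Pax5 and Bcl11b, which fix B and T cell fate, had H3K27me3 alone, with 19089 bp and 3166 bp. None of 20 erythroid and megakaryocyte genes had both marks, which at a share of 3.06% of all genes is too short a list to set apart. The peaks overlapped at 3 of the 8 genes (Ebf1, Lef1 and Irf4), at 33 of the 37 developmental factors with both marks and at 62.9% of all 633 genes, and 8 genes are too few to be set apart from this share.

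Genes of the Polycomb complexes and of cell cycle inhibitors were also divided. Of 20 PRC1 genes, 12 had H3K4me3 alone (60%, against 32.3% of all genes). Cbx2 and Bmi1 were among those with H3K27me3 alone, and Cbx8 had both. An H3K4me3 peak of 4.25-fold enrichment lay within H3K27me3 with its centre 1274 bp from a start site of Bmi1. It was outside the 1 kb promoter and so did not count for this gene. PRC2 genes had H3K4me3 alone at 6 of 11 (54.5%), including Ezh2 and Suz12, and H3K27me3 alone at Epop. The median CpG ratio was 0.828 for the PRC1 genes and 0.839 for the PRC2 genes. In the quintile of highest CpG content, 56.8% of all genes had H3K4me3 alone, near the shares of both lists. Cdkn2a and Cdkn2b, inhibitors of cell cycle entry whose silencing by Polycomb sustains HSCs, had H3K27me3 alone over 36526 bp and 16298 bp. The related Cdkn2c had H3K4me3 of 5.45-fold enrichment and 969 bp of H3K27me3, with 1015 bp between the peaks. Cdkn1a and Cdkn1b had H3K4me3 alone.

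H2AK119ub1, the mark of PRC1, was found at similar shares of H3K27me3 genes with and without H3K4me3 in young HSCs. It was listed at 2.00% of all genes, at 10.4% (8.28 to 13.0) of the genes with both marks and at 11.1% (9.92 to 12.3) of those with H3K27me3 alone, and the intervals overlapped. With H3K4me3 alone and with neither mark it was 0.329% and 0.325%. In the list of aged HSCs, which held more H2AK119ub1, the shares were 67.9% (64.2 to 71.5) with both marks and 47.5% (45.6 to 49.4) with H3K27me3 alone, and the intervals did not overlap. In the same list, H2AK119ub1 was found at 14.4% of all genes, at 9.19% with H3K4me3 alone and at 6.48% with neither. The difference between both marks and H3K27me3 alone in the aged list was also found among genes of similar H3K27me3 length. These genes were not matched for CpG content or number of start sites. Up to 1 kb the shares were 42.9% (35.6 to 50.4) and 25.9% (23.0 to 29.0), from 1 to 3 kb 69.1% and 48.3%, and over 3 kb 85.2% (80.0 to 89.2) and 70.5% (67.1 to 73.7). Nr4a2, Meis2, Pax2, Cebpa and Ebf1 were among the genes that had H2AK119ub1 only in the aged list.

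The genes with both marks were then followed into the lists of aged HSCs, in which 0.825% of all genes had both marks. The aged lists of H3K4me3 and H3K27me3 were shorter, with 22612 peaks and regions together on chromosomes 1 to 19, so that the classes are compared here with each other and not the ages. H3K27me3 was listed in aged HSCs at 50.4% of the genes with both marks and at 50.1% of those with H3K27me3 alone. H3K4me3 differed. It was listed at 34.8% of the genes with both marks, but at 53.7% of those with H3K4me3 alone. Because H3K4me3 was weaker with both marks, genes were compared at similar strength of the young peak. With a −log10 q-value under 4, H3K4me3 was listed in aged HSCs at 19.5% (15.0 to 25.0) with both marks and 45.8% (43.5 to 48.2) with H3K4me3 alone. From 4 to under 6 the shares were 42.5% (36.8 to 48.4) and 50.9% (49.0 to 52.8), and from 6 they were 47.9% (39.0 to 56.8) and 62.7% (60.7 to 64.7). With the same number of top-ranked peaks at both ages, H3K4me3 was found at 43.8% of 260 genes with both marks and 56.5% of 4830 genes with H3K4me3 alone. Both marks in both lists were found at 105 of the 633 genes (16.6%, 13.9 to 19.7), among them Elavl2, Chrm2, Hey2, Tfap2a, Phactr1 and Fat3, and at Erg, Ebf1 and Cbx8. This share depended on the length of the lists. It was 68 of 260 genes (26.2%) with the same number of top-ranked peaks at both ages, and 0 of 67 genes under the stricter q-value, where 1 gene had both marks in aged HSCs.

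The arrangement of the marks in young HSCs went with what was listed at 20 months. Where the peaks overlapped, 45.0% (40.2 to 49.9) of 398 genes had H3K27me3 alone in aged HSCs and 12.3% (9.44 to 15.9) H3K4me3 alone. Where they did not overlap, 14.9% (10.9 to 20.0) of 235 genes had H3K27me3 alone, 28.1% (22.7 to 34.2) H3K4me3 alone and 43.8% neither. Nr4a2, Pax2, Nrn1 and Lef1 were of the former kind, and Cebpa, Id2 and Cdkn2c, which kept H3K4me3 alone, of the latter. H3K27me3 was shorter where the peaks did not overlap, and its part in this was not tested.

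**Figure D5:**
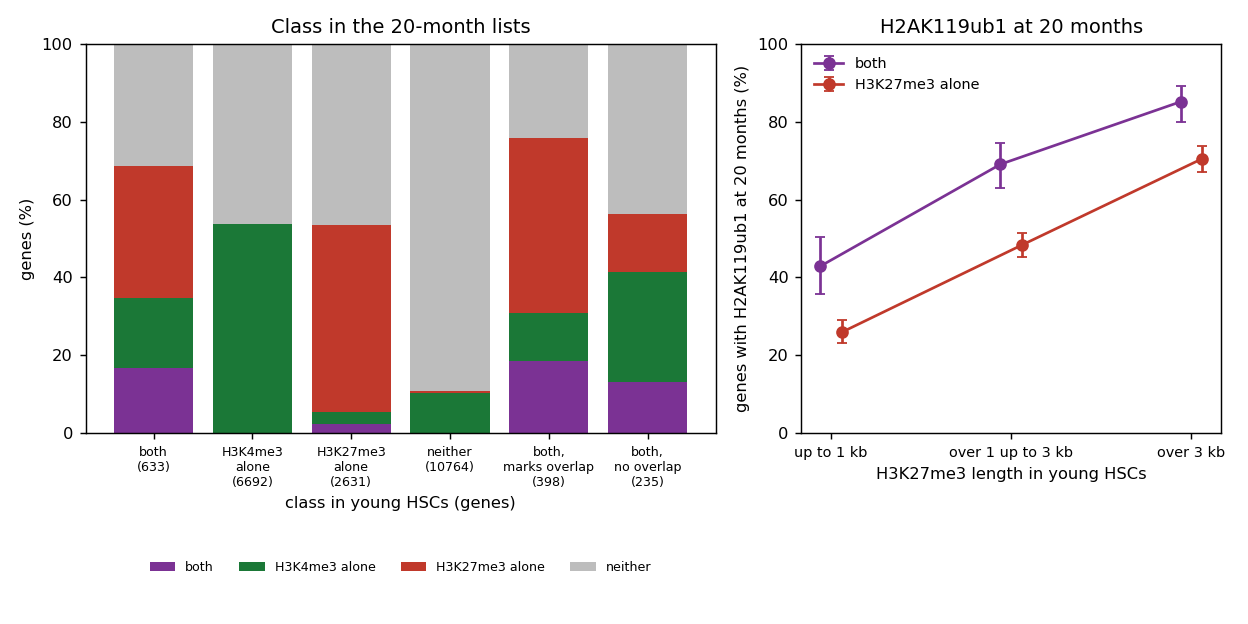
Left, class in the lists of aged (20-month) HSCs as a percent of genes (y axis) for each class in young HSCs and for genes with both marks split by overlap of the peaks (x axis, number of genes in brackets). Right, percent of genes with H2AK119ub1 in the aged list (y axis) by total H3K27me3 length in young HSCs (x axis) with 95% Wilson intervals, where genes with both marks lie above genes with H3K27me3 alone at each length.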

How the data were processed

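ChIP-seq peaks for H3K4me3, H3K27me3 and H2AK119ub1 in young and aged HSCs were used as deposited. According to the submitters' processing notes, Bowtie2, MACS2 2.2.6 and build mm10 were used, although the role of each in these lists is not given there. The deposited lists give, per peak, the fold enrichment as a linear ratio, and the −log10 of the p-value and of the q-value, as the authors' caller wrote them (for broad regions, averages). The peak names carry a q-value of 0.05 for H3K4me3 and a broad threshold of 0.1 for the other marks. H3K4me3 names hold a pair of library numbers and broad names a single number, so it is uncertain that both libraries entered each broad list. The lists hold no read totals. Summit pileup was recovered for H3K4me3 from fold and p-value, and whole reads were found for 100% of peaks within 0.01 on the −log10 scale. For broad marks the depth is unknown.

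Start sites were those of protein-coding transcripts in the basic set of GENCODE M21. Overlaps were computed with numpy 2.4.6 and pandas 2.3.3, and intervals with scipy 1.17.1, all under Python 3.11.15. The overlaps were tested on simulated intervals and checked with bedtools 2.31.1, which gave the same 835 peaks. Sequence was read from the mm10 assembly with pysam 0.24.0. Plots used matplotlib 3.10.9. CpG content was taken within 500 bp of the most upstream start site.

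Named genes were the 10 with both marks that ranked best by the worse of their ranks for H3K4me3 (−log10 q-value) and H3K27me3 (length), the 5 with the longest stretch under both marks, the 5 best of each single-mark class, and members of the 29 gene lists. The classes, lists and rules were chosen with earlier results of these data known. Listed genes were matched by symbol, and 1 PRC2 gene lies outside chromosomes 1 to 19.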

Additional observations from a re-analysis of the deposited data

Results flagged for a closer look

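Chromosome X was outside the comparison of the report. Of its 948 protein-coding genes, 13 carried both marks in young HSCs (1.37%, 0.803 to 2.33), a smaller share than the 3.06% on the autosomes. H3K27me3 alone was found at 229 genes (24.2%, against 12.7% on the autosomes), H3K4me3 alone at 51 (5.38%, against 32.3%) and neither at 655. The genes with both marks were Alg13, Atp7a, Fam199x, Igbp1, Nbdy, Ogt, Pdzd11, Piga, Pola1, Rnf128, Tmem35a, Tmsb4x and Zdhhc15. They include Ogt (a glycosyltransferase of nuclear proteins), Pola1 (a subunit of DNA polymerase alpha) and Piga (an enzyme of membrane anchors). The mice were female.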

How the results depend on the processing

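No paired analysis was possible because the deposited peaks were not tied to single libraries. Leaving out a library was likewise not possible. Of 49 values recomputed under alternatives, 36 stayed within 1.5 times the reported count or within the reported interval. A −log10 q-value of at least 4 left 67 genes with both marks, 403 with H3K27me3 alone, 14.3% of H3K27me3 genes with H3K4me3, 1.48% of H3K4me3 peaks overlapping H3K27me3, and 0 genes with both marks at both ages, since 1 gene then had both at 20 months. Counting overlapping peaks only gave 398 genes with both marks. The share of H3K27me3 genes carrying H3K4me3 was 15.5% with promoters of 500 bp, 21.8% with 2 kb and 16.7% with 1 start site per gene. It was below that of genes without H3K27me3 (26.3% to 39.9%) under all 8 alternatives. The H3K4me3 peaks overlapping H3K27me3 were 6.39% with 50% of the peak covered and 8.81% with peaks within 1 kb joined. Genes with both marks at both ages numbered 68 with the same number of peaks and 160 with promoters of 2 kb. Fewer peaks or wider promoters give these shifts by construction. Taking all protein-coding transcripts (670 genes with both marks) and leaving out shared promoters (579) were chosen after seeing the data. Pooled lists give no spread between mice, and shallow H3K4me3 limits what absence means.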

Other observations

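Letters of common promoter motifs were counted in the 250 upstream bases on both strands. The core of the ETS motif, CCGGAAG, was present at 15.4% of the genes with H3K4me3 alone, 3.63% with both marks, 2.97% with H3K27me3 alone and 5.85% with neither, against 8.49% of all genes. The letters GCATGCG of the NRF1 motif were found at 6.17%, 3.00%, 2.58% and 2.66%, against 3.79% of all. The GC box GGGCGG did not separate both marks (56.9%) from H3K4me3 alone (59.7%) and was found at 48.4% with H3K27me3 alone, 27.8% with neither and 41.6% of all. TATAAA was most frequent with neither mark (15.6%) and CCAAT was similar in all classes (33.3% to 36.6%). These motifs partly contain CpG, and a match is a description of letters only.

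Both marks were unevenly found over the chromosomes. Their share ranged from 0.858% of the genes on chromosome 17 (9 of 1049, 0.452 to 1.62) to 4.89% on chromosome 18 (3.34 to 7.12). On chromosome 17, 6.72% (3.57 to 12.3) of the H3K27me3 genes carried H3K4me3, compared with 19.9% (18.6 to 21.4) on the other autosomes. Chromosome 17 was chosen as the lowest of 19 after the values were seen. For 472 overlaps of an H3K4me3 peak with an H3K27me3 region wider than 2 kb, 32.0% of the peak centres were within 500 bp of an edge or outside the region. Of the length of these regions, 25.5% lies within 500 bp of an edge. The first share includes centres beyond an edge, so the shares cannot be compared directly. Of the 723 H3K27me3 regions with H3K4me3, 85 held 2 peaks and 17 held 3. Among the latter, a region of 12918 bp lay over Osr1, a factor of kidney and limb development.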
